A study of Mus musculus with 8 samples.

Results

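Prostaglandin synthesis and receptor genes were followed in mouse embryonic fibroblasts (MEFs), cultured mesenchymal cells, after interferon-beta (IFN-beta) and in untreated cultures. IFN-beta is a type I interferon that infected cells release to set neighbouring cells into an antiviral state. The 10 genes were chosen by symbol, as the cyclooxygenases Ptgs1 and Ptgs2, the synthases Ptges, Ptges2, Ptges3 and Ptgis, and the receptors Ptgfr, Ptger1, Ptger2 and Ptger4. All 10 were found among the 24015 gene symbols of the count tables, and 9 had enough counts to be tested. The list was put together with earlier results of the same comparison known, so the changes of the 10 genes are given as a description. Whether the fit across all genes called them (adjusted p below 0.05) is stated. No p-value is printed for them, and the list was not tested as a set.

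RNA-seq covered 2 libraries of MEFs treated for 6 h with 100 units/mL of recombinant murine IFN-beta and 2 libraries of untreated MEFs. All 4 libraries came from wild type cells of C57bl/6 background, taken at E12.5 (days of embryonic development) and used at passages 15 to 18, so both groups are late-passage cultures and not fresh tissue. The series as a whole concerns mice whose histone H3.3 carries an HA tag, and its 4 chromatin samples were not analysed here. The labels number the replicates without saying whether they were separate cultures, so errors describe how these libraries differ and may be technical only.

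Prostaglandins are short-lived lipid signals made from arachidonic acid, which phospholipases release from membranes. Ptgs1 encodes the constitutive cyclooxygenase COX-1 and Ptgs2 the inducible COX-2, which is best known in fibroblasts as an early growth factor and cytokine response gene. Terminal synthases turn their shared product into prostaglandin E (Ptges, Ptges2 and Ptges3) or prostacyclin (Ptgis). Prostaglandins leave the cell and act on G protein-coupled receptors, of which Ptger2 and Ptger4 raise cyclic AMP, and Ptger1 and Ptgfr raise calcium.

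The promoters of the genes that the results turn on are shown first, since the cyclooxygenase genes and Ptgfr differed in what letters they hold near the start. Windows of 300 bases, from 250 bases before to 50 after the RefSeq start, were present for 8 of the 10 genes (GRCm38.p6). The Ptgs2 window is chr1:150099781-150100080 on the plus strand, the Ptgs1 window chr2:36230176-36230475 on the plus strand and the Ptgfr window chr3:151837479-151837778 on the minus strand. Capitals mark the C/EBP, cyclic AMP response element (CRE) and E-box matches in Ptgs2 and the GC boxes in Ptgfr, and Ptgs1 has no capitals because it held none of the 8 motifs searched.
Ptgs2: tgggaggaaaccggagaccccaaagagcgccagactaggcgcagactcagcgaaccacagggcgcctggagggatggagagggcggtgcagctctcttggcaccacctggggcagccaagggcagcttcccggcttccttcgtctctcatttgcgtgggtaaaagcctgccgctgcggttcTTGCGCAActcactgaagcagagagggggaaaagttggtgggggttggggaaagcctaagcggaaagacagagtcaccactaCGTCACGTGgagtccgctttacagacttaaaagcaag
Ptgs1: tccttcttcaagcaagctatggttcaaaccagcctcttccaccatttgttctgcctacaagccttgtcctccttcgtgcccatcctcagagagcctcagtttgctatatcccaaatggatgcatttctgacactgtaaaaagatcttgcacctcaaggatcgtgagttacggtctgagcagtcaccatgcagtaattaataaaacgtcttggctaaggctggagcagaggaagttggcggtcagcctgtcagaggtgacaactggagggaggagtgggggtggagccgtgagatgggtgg
Ptgfr: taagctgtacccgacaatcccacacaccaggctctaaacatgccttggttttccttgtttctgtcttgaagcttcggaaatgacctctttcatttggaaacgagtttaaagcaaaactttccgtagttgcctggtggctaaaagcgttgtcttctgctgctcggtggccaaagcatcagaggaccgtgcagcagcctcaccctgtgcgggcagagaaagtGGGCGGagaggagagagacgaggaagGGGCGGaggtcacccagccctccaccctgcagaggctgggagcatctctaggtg

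Both strands were searched, and positions count from the RefSeq start base as 0. That start was taken as given and not checked, so a position before or after it depends on the annotation. The C/EBP palindrome TTGCGCAA, a binding sequence of a family that acts in inflammation, lay at -69 to -62 in Ptgs2 and in none of the other 7 windows. It is rare, with a match in 0.183% of 32851 mouse promoter windows. The CRE half-site TGACG lay on the opposite strand at 13 to 17 in Ptgs2 and shared 2 bases with the E-box CACGTG at 16 to 21. Windows with a half-site made up 20.8% of all windows and those with the E-box 7.15%. Ptges3 also held a half-site, and Ptges2 an E-box. The GC box GGGCGG lay at -30 to -25 and at -4 to 1 in Ptgfr. It was in 5 of the 8 windows, among them that of Ptgs2 at -170 to -165 (not in capitals). Of all windows 35.7% held it, and 54.8% of the 544 windows of genes called higher after IFN-beta. In those 544 windows the C/EBP palindrome was in 0.735%, the CRE half-site in 27.9% and the E-box in 6.43%.

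None of the 8 windows held the core of the interferon-stimulated response element, GAAANNGAAA, the sequence read by the interferon-activated factor ISGF3. It was present in 3.44% of all windows, in 14.9% of the 544 windows of genes called higher after IFN-beta and in 4 of 7 windows of well-known interferon response genes. The STAT site TTCNNNGAA (8.30% of all windows), the NF-kB consensus (4.51%) and TATAAA (13.6%) were in none of the 8 windows either. A missing match says only that these letters are not in these 300 bases.

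**Figure D1:**
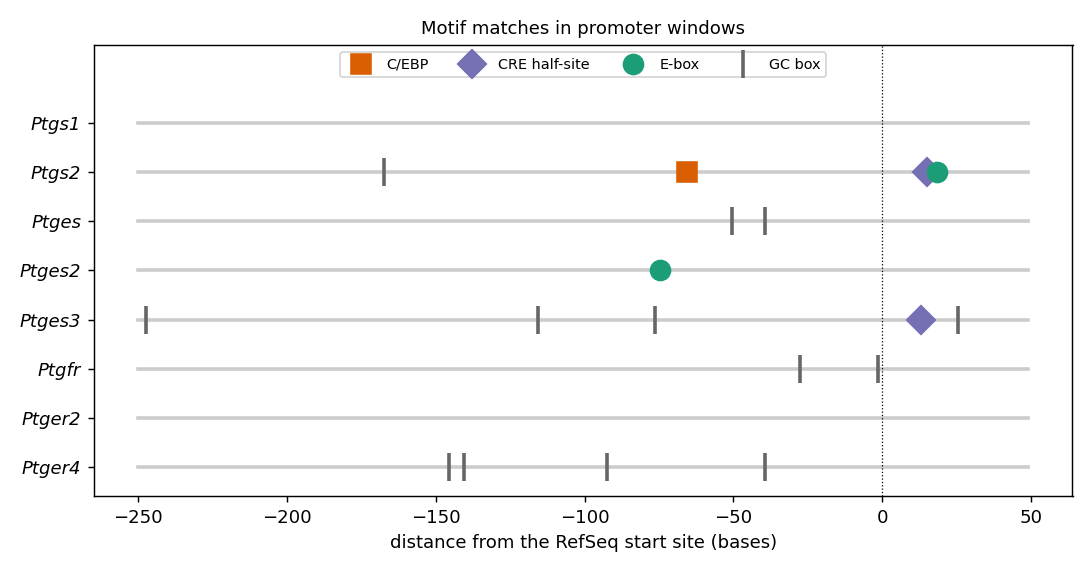
Motif matches in the promoter windows of 8 prostaglandin genes, drawn by distance in bases from the RefSeq start site (dotted line), with a symbol for each motif. Ptgs2 is the window with matches to 4 of the 8 motifs searched, and Ptgs1 and Ptger2 hold none.

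The IFN-beta libraries held 18901845 and 20714161 gene counts and the untreated libraries 18528685 and 24817342. All 7 interferon response genes chosen as a check rose, with a summed level of 3170 and 3456 CPM (counts per library of 1000000 scaled counts) in IFN-beta libraries and 30.1 and 24.5 CPM in untreated ones. Among all 12128 genes tested with edgeR, 4.73% were called higher and 0.495% lower at an adjusted p below 0.05. The 10 fibroblast markers were all detected, led by Vim, with a summed level of 6069 to 6432 CPM in IFN-beta libraries and 4739 to 5239 CPM in untreated ones. None was called by edgeR, DESeq2 or limma-voom (3 had an unadjusted edgeR p below 0.05, as did 2202 of all 12128 tested genes). The sum hides that 7 had a log2 fold change above 0 and 3 below, the latter Pdgfra (-0.62), Lum (-0.57) and Dcn (-0.30). In such bulk libraries fewer cells of a type and less RNA per cell cannot be told apart. CPM values are not divided by gene length, so levels are compared between groups and not between genes.

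Of the 10 genes, Ptgs2 was higher and Ptgfr lower after IFN-beta, while the other 7 tested genes stayed within a log2 fold change of 0.30 in either direction. The fit across all genes called 1 of the 9 tested members higher and 1 lower, against 5.23% of all tested genes called in either direction; since the list was chosen with this comparison known, nothing is read from that share. With each library left out in turn, 0 to 3 were called higher and 0 to 1 lower, with 3 higher without untreated replicate 2, 0 higher without IFN-beta replicate 1, and 0 lower without untreated replicate 1 or either IFN-beta replicate. The median log2 fold change was -0.04 over the 9 members and -0.02 over all tested genes. Both IFN-beta libraries lay above both untreated ones for 2 of the 9 members and below them for 3, against 23.9% and 26.8% of all tested genes.

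**Figure D2:**
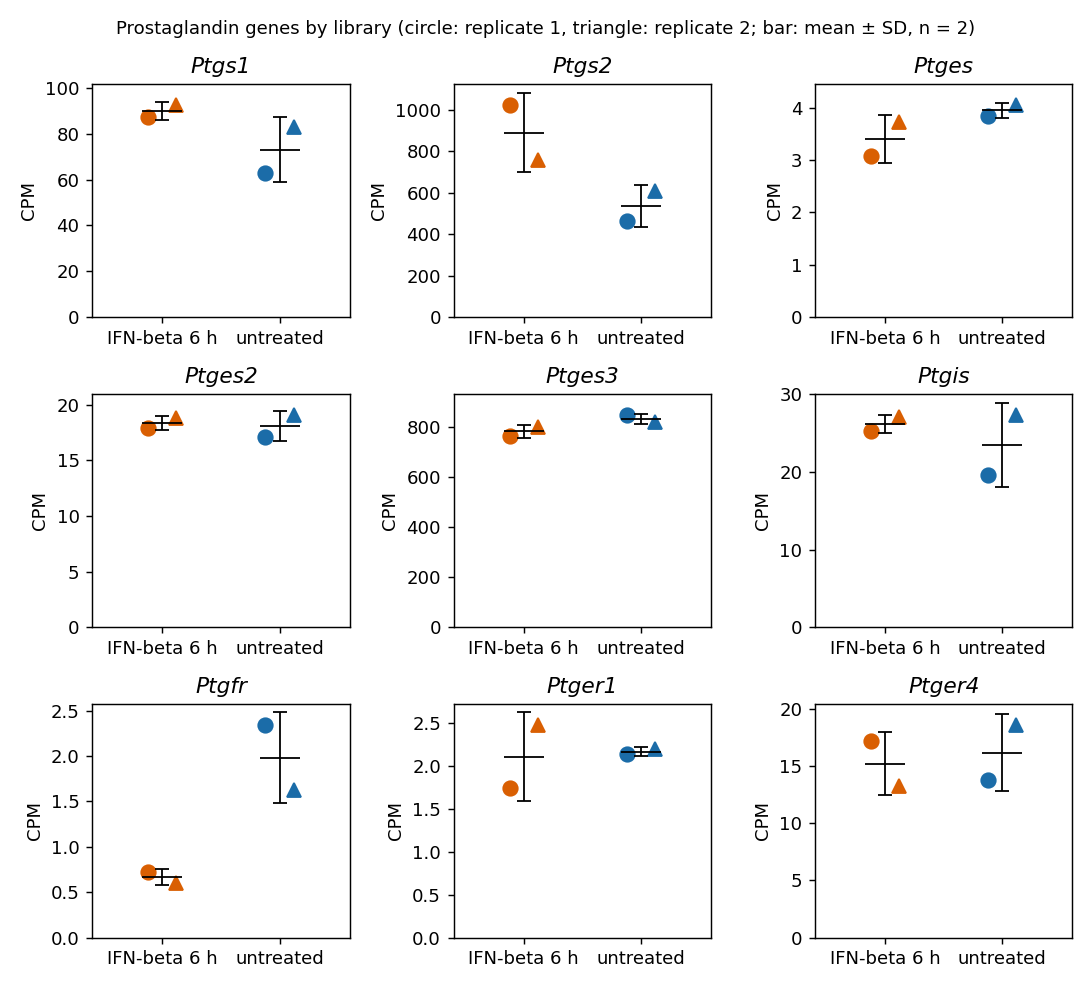
CPM of the 9 tested prostaglandin genes in each library, with each vertical axis starting at 0; circles are replicate 1, triangles replicate 2, and bars the mean ± SD of the 2 libraries of a group. Ptgs2 lies at 757 CPM or more in IFN-beta libraries and at 606 CPM or less in untreated ones, and Ptgfr shows the opposite order.

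Ptgs2, the inducible cyclooxygenase, had 1024 and 757 CPM in IFN-beta libraries (18285 and 15030 counts), against 465 and 606 CPM in untreated libraries (8953 and 16003 counts). The groups did not overlap, but the gap was narrow: the lower IFN-beta library was 1.25 times the higher untreated one, while replicates differed 1.35 times within the IFN-beta group and 1.30 times within the untreated group. Mean levels were 891 ± 189 CPM after IFN-beta and 536 ± 99.98 CPM without it (SD, n = 2 each), a 1.66-fold difference with a log2 fold change of 0.73 ± 0.18 SE. The size rests in part on IFN-beta replicate 1: without that library the log2 fold change was 0.50 and Ptgs2 was not called, and it was not called either with total library size scaling, upper quartile scaling or a filter at 1 CPM.

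IFN-beta replicate 1 also stood out for some immediate early genes, the rapid transcripts that follow serum, growth factors or stress. Ptgs2 belongs to this class. Of 9 such genes picked from the lists, 8 were highest in IFN-beta replicate 1, a grouping made after their values were seen. The 9 are not all genes of those lists. Outside the 9, Zfp36 and Per1 were also highest there, while Cebpb, Cebpd, Sik1 and Areg were not. The share of all genes highest in that library was not computed. Some margins were small: Fos had 5.55 CPM there and 5.35 CPM in untreated replicate 1. Nr4a3 had only 5 and 3 counts in IFN-beta libraries and 3 and 1 in untreated ones. Jun was high in both IFN-beta libraries (107 and 96.9 CPM, against 56.6 and 76.9 CPM in untreated ones), and Nr4a2 was highest in untreated replicate 1. Egr1, an early response transcription factor, had 25.9 and 10.8 CPM in IFN-beta libraries and 11.7 and 9.89 CPM in untreated ones. Without IFN-beta replicate 1 its log2 fold change was 0.01, against 0.77 with all libraries (edgeR adjusted p = 0.262), and it was called without any of the other 3 libraries (0.64 to 1.27) and with no count filter (0.77). The part of that library's early response level in the Ptgs2 value was not tested.

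Ptgs1, the constitutive cyclooxygenase, had 87.2 and 92.6 CPM in IFN-beta libraries, against 62.9 and 83.1 CPM in untreated libraries. The groups did not overlap, but the lower IFN-beta value was 1.05 times the higher untreated one, and the log2 fold change of 0.30 ± 0.15 SE was not called. It depended on the untreated libraries, at 0.52 and called without untreated replicate 2 and at 0.14 without untreated replicate 1. The ratio of Ptgs2 to Ptgs1 counts within a library was 11.7 and 8.18 after IFN-beta and 7.39 and 7.30 without it, higher in both IFN-beta libraries. The long noncoding neighbour Ptgs2os, which lies upstream of Ptgs2 in the RefSeq annotation of GRCm38.p6, had 7.56 and 7.15 CPM in IFN-beta libraries and 4.52 and 6.44 CPM in untreated ones. Its log2 fold change of 0.41 ± 0.23 SE was not called (edgeR adjusted p = 0.377, at 0.70 and called without untreated replicate 2, at 0.21 without untreated replicate 1), and it was looked up because it adjoins Ptgs2.

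None of the 3 prostaglandin E synthases was called. Ptges, the inducible membrane synthase that is often expressed together with COX-2, had 3.08 and 3.73 CPM in IFN-beta libraries, against 3.84 and 4.06 CPM in untreated libraries. Both IFN-beta values were lower, yet the log2 fold change of -0.21 ± 0.24 SE was smaller than its error and opposite in sign to that of Ptgs2. Ptges2, a second membrane-associated synthase, had 17.9 and 18.8 CPM after IFN-beta and 17.1 and 19.1 CPM without it, so the groups overlapped (log2 fold change 0.02 ± 0.16 SE). Its sign was not stable, with values from -0.13 to 0.10 over the alternatives.

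Ptges3, the cytosolic synthase that is also the HSP90 co-chaperone p23, had 766 and 801 CPM in IFN-beta libraries, against 849 and 820 CPM in untreated libraries. Its groups did not overlap, although the log2 fold change was -0.09 ± 0.13 SE and not called. It stayed below 0 in all 12 alternatives, between -0.23 and -0.04. Ptgis, the prostacyclin synthase, had 25.3 and 27.05 CPM in IFN-beta libraries, against 19.6 and 27.3 CPM in untreated libraries. Untreated replicate 1 was the low library, and the groups overlapped (log2 fold change 0.15 ± 0.18 SE). Without untreated replicate 2 the value was 0.42 and called, and without untreated replicate 1 it was -0.04.

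Among the receptors, Ptgfr, the receptor for prostaglandin F, had the largest change of the 9 tested members. It had 0.728 and 0.604 CPM in IFN-beta libraries (13 and 12 counts), against 2.34 and 1.63 CPM in untreated libraries (45 and 43 counts). Every IFN-beta value was below every untreated one, and the higher IFN-beta library was at 0.447 of the lower untreated library. Means were 0.666 ± 0.0875 CPM after IFN-beta and 1.98 ± 0.501 CPM without it (SD, n = 2 each), a log2 fold change of -1.55 ± 0.38 SE. The call was lost by DESeq2 and limma-voom, and without untreated replicate 1 (-1.27), IFN-beta replicate 1 (-1.69) or IFN-beta replicate 2 (-1.42), while the direction stayed the same in all 12 alternatives.

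The receptors for prostaglandin E were not called. Ptger4, a cyclic AMP-raising receptor, had 17.1 and 13.2 CPM in IFN-beta libraries, against 13.8 and 18.5 CPM in untreated libraries. High and low libraries occurred in both groups, and the log2 fold change was -0.09 ± 0.20 SE. Leaving out libraries moved it between -0.29 and 0.14. Ptger1, a calcium-linked receptor, had 1.74 and 2.47 CPM after IFN-beta and 2.13 and 2.20 CPM without it (-0.04 ± 0.30 SE), with the untreated values inside the IFN-beta range. The strand setting of the counting is not given, so its low counts are uncertain.

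Ptger2, the other cyclic AMP-raising receptor for prostaglandin E, had 0 and 0 counts in IFN-beta libraries, against 1 and 1 count in untreated libraries. It was too low to test, and a count of 0 allows up to 3 counts, or 0.168 and 0.151 CPM in the IFN-beta libraries, by counting error only. Ptger3, a receptor outside the 10 that lowers cyclic AMP, had 1 and 0 counts after IFN-beta and 0 and 1 count without it. At this depth a fall or a small rise in either gene was not detectable.

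Replicates of the 9 tested members differed 1.04 to 1.42 times within the IFN-beta group and 1.03 to 1.43 times within the untreated group. Ptger1 was the member with the widest IFN-beta pair and Ptgfr the one with the widest untreated pair, and both have low counts. For Ptgs2, Ptgs1, Ptgis and Ptger4 the untreated pair was 1.30 to 1.39 times apart, each with replicate 2 above replicate 1. For Ptges, Ptges2 and Ptges3 no pair was more than 1.21 times apart. Ptgfr was the member whose groups lay further apart than any replicate pair of its own, since its nearest IFN-beta and untreated libraries differed by more than the 1.43 times within the untreated pair.

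By likeness of pattern over the 4 libraries, the genes nearest to Ptgfr were Stard8, Gm3716 and Gm14403, at Euclidean distances of 0.290, 0.327 and 0.340 on the centred log2 CPM scale. Of these Gm14403 was called lower (log2 fold change -1.48 ± 0.21 SE), and Stard8 (-1.58) and Gm3716 (-1.17) were not. Their direction follows from the choice, since they were picked by likeness over the same 4 libraries. Stard8 was low, at a mean of 0.266 CPM after IFN-beta and 0.830 CPM without it.

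The rest of the pathway was described with 7 lists of 88 other symbols, of which 51 were tested. IFN-beta raised 4 of them and lowered 0 in edgeR (adjusted p below 0.05 over all genes), with a median log2 fold change of 0.11, against 4.73% higher and 0.495% lower among all tested genes. The lists were drawn up with earlier results known, so nothing is read from that share. At an unadjusted edgeR p below 0.05 there were 9 higher and 3 lower, against 2202 of all 12128 tested genes in either direction. Nothing is read from that count either. By limma-voom 4 were called higher and 0 lower, and DESeq2 also called 4 higher, with Jun in place of Ptgir, and 0 lower. The count rests on single libraries, with 1 higher without IFN-beta replicate 1, 8 higher without untreated replicate 1, and 12 higher and 5 lower without untreated replicate 2. The genes that rose were Slco2a1, Ptgir, Ptgfrn and Zfp36.

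Slco2a1, the transporter that takes prostaglandins back into the cell for breakdown, had 26.6 and 21.9 CPM in IFN-beta libraries, against 4.26 and 9.44 CPM in untreated libraries. Both IFN-beta libraries were above both untreated ones. Means were 24.2 ± 3.28 CPM after IFN-beta and 6.85 ± 3.66 CPM without it (SD, n = 2 each), a 3.48-fold rise with a log2 fold change of 1.80 ± 0.30 SE (edgeR adjusted p = 0.0052). Its size moved with the untreated libraries, to 1.38 without untreated replicate 1 and to 2.50 without untreated replicate 2, and it was called under all 12 alternatives (adjusted p from 2.7e-31 to 0.0198). Slco2a1 was the 1 call among 5 tested breakdown and transport genes by edgeR, DESeq2 and limma-voom, against 5.23% of all tested genes by edgeR. Nothing is read from that count about the list. Hpgd, the enzyme that inactivates prostaglandins after uptake, had 0 and 0 counts in IFN-beta libraries and 1 and 0 counts in untreated ones (named after its values were seen).

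Ptgir, the prostacyclin receptor, had 3.14 and 3.32 CPM in IFN-beta libraries (56 and 66 counts), against 1.04 and 1.48 CPM in untreated libraries (20 and 39 counts). The groups did not overlap, and the log2 fold change was 1.34 ± 0.30 SE (edgeR adjusted p = 0.0286, from 0.00035 to 0.127 over the alternatives). The call did not hold under total library size, with DESeq2, without IFN-beta replicate 1 (1.38) and without IFN-beta replicate 2 (1.30). Ptgfrn, a membrane protein known to restrain ligand binding by the prostaglandin F receptor, had 85.2 and 83.5 CPM in IFN-beta libraries, against 51.5 and 55.9 CPM in untreated libraries.

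Replicates of Ptgfrn lay close together, with means of 84.4 ± 1.20 CPM after IFN-beta and 53.7 ± 3.13 CPM without it (SD, n = 2 each). Its log2 fold change was 0.65 ± 0.13 SE (edgeR adjusted p = 0.0134, from 4.2e-06 to 0.117 over the alternatives), and the call was lost without IFN-beta replicate 1 (0.64) or replicate 2 (0.67). Ptgfr and Ptgfrn moved in opposite directions. The remaining receptors of the list, Ptgdr, Ptgdr2, Tbxa2r and Ptger3, had between 0 and 4 counts in every library and were not tested.

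**Figure D3:**
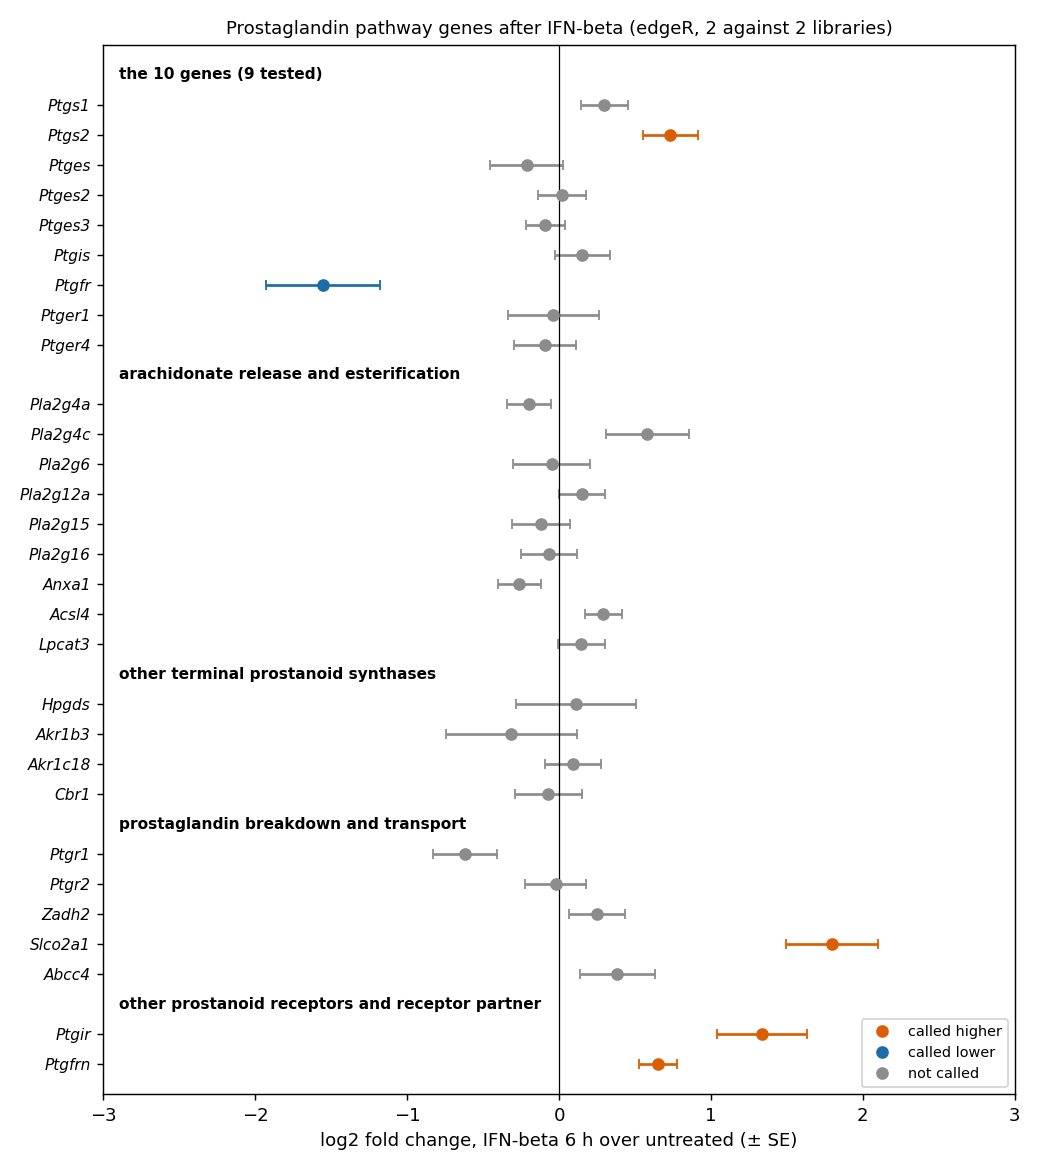
Log2 fold change of IFN-beta over untreated (± SE) for the 9 tested prostaglandin genes and for the tested genes of 4 further lists of the pathway; colours show the edgeR call. Slco2a1, Ptgir, Ptgfrn and Ptgs2 lie to the right with their calls, Ptgfr to the left, and the phospholipase and terminal synthase lists have no call.

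Zfp36 encodes tristetraprolin, a protein known to bind AU-rich elements and speed the decay of mRNAs that include that of Ptgs2. It had 13.7 and 9.27 CPM in IFN-beta libraries, against 4.78 and 5.34 CPM in untreated libraries. The groups did not overlap, and the log2 fold change was 1.18 ± 0.23 SE (edgeR adjusted p = 0.0141, from 2.4e-07 to 0.190 over the alternatives). As with Ptgs2, IFN-beta replicate 1 was the higher library, and without it the value was 0.87 and not called. Zfp36 was the 1 call by edgeR and by limma-voom among 16 tested regulators of Ptgs2 transcription and mRNA decay, and DESeq2 called Jun as well. Of all tested genes edgeR called 5.23% in either direction, so nothing is read from 1 call in 16. The median log2 fold change of the list was 0.10.

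Tested were 9 genes that release or esterify arachidonate and 4 other terminal synthases. Also tested were 4 genes of the lipoxygenase and leukotriene branch and 11 genes known to be raised by cyclic AMP. None was called by edgeR, DESeq2 or limma-voom. With edgeR calling 5.23% of all tested genes, nothing is read from lists this short without a call. At an unadjusted edgeR p below 0.05 these lists had 1, 0, 1 and 2 genes, against 2202 of all 12128 tested. The median log2 fold changes of these lists, in the same order, were -0.05, 0.01, -0.67 and 0.35. In the first list, Acsl4, which activates arachidonic acid, was at 0.29 ± 0.12 SE (edgeR adjusted p = 0.239) and the phospholipase Pla2g4c at 0.58 ± 0.27 SE (0.301). Among the synthases, the aldo-keto reductases Akr1b3 and Akr1c18 were at -0.31 ± 0.43 SE and 0.09 ± 0.19 SE (edgeR adjusted p = 0.753 and 0.842), and Akr1c18 turned to -0.054 with total library size scaling. The leukotriene genes Mgst3 and Dpep1 were at -0.75 ± 0.29 SE and -0.58 ± 0.26 SE (edgeR adjusted p = 0.206 and 0.281), and the cyclic AMP-responsive genes Per1 and Crem at 0.65 ± 0.22 SE and 0.52 ± 0.17 SE (edgeR adjusted p = 0.140 and 0.144). Without untreated replicate 2, Acsl4 (0.34), Mgst3 (-1.12), Per1 (0.82) and Crem (0.69) were called, and without untreated replicate 1 Mgst3 was at -0.26. Mgst3 and Per1 were also called with no count filter (edgeR adjusted p = 0.00905 and 0.0496).

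Markers of other cells that express prostaglandin genes were also read. Of 5 endothelial markers, led by Kdr, 2 were tested and Cdh5 rose (24 and 19 counts in IFN-beta libraries, 2 and 6 in untreated ones, log2 fold change 2.68 ± 0.53 SE, edgeR adjusted p = 0.0139, from 0.00033 to 0.0777 over the alternatives, not called at 2.43 without IFN-beta replicate 1), and the list summed to 3.14 and 2.01 CPM after IFN-beta and 0.935 and 1.06 CPM without it. Kdr was at a log2 fold change of 1.18 ± 0.43 SE and was not called (edgeR adjusted p = 0.177). Tek went the other way, with 0 and 0 counts in IFN-beta libraries and 5 and 2 counts in untreated ones. The defining marker Pecam1 had 0 and 1 counts in IFN-beta libraries and 1 and 2 counts in untreated ones, and Emcn was at 0 in all 4. Slco2a1 and Ptgir are known to be expressed by endothelial cells, and the part of such cells in their values was not tested. Macrophage markers summed to 21.5 and 16.5 CPM in IFN-beta libraries and 23.5 and 18.2 CPM in untreated ones, led by Cd14. None of them was called, and they did not move together, with Lyz2 at a log2 fold change of -1.08 and Cd68 at 0.82. All 4 mast cell markers had 0 counts. Smooth muscle markers, led by Acta2, summed to 2255 and 2192 CPM after IFN-beta and 1864 and 2050 CPM without it. Cnn1 of that list went the other way, with 90.5 and 92.9 CPM after IFN-beta and 113 and 124 CPM without it, and was not called. Myh11 and Des of the same list were near 0 and not tested. Myh11 had 0 and 6 counts after IFN-beta and 3 and 11 without it, and Des 2 and 0 against 1 and 1. Epithelial markers, led by Krt19, summed to 44.5 and 49.96 CPM after IFN-beta and 49.7 and 66.4 CPM without it. Nearly all of that was Krt19 (43.7 and 49.1 CPM, against 49.5 and 65.4 CPM), which was not called. Epcam, Cdh1, Krt8 and Krt18 had 0 to 11 counts in every library and were not tested. Cdh1 went the other way, with 4 and 8 counts after IFN-beta and 1 and 2 without it.

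**Figure D4:**
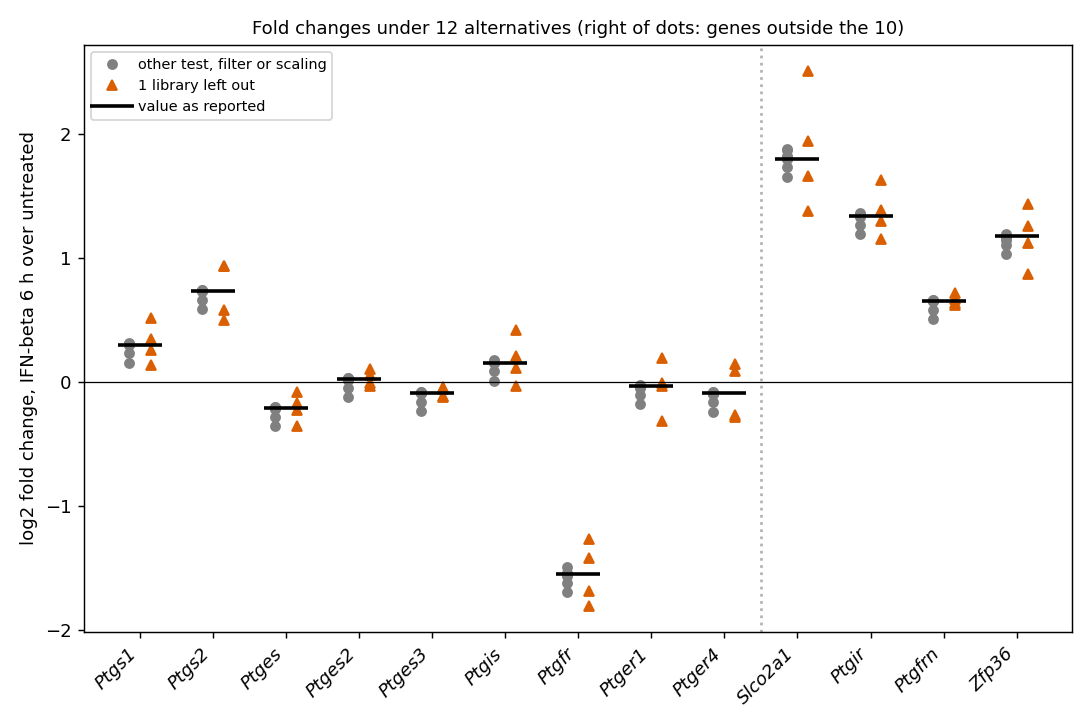
Log2 fold change of IFN-beta over untreated for the 9 tested prostaglandin genes and for the 4 pathway genes that rose (right of the dotted line), as reported (black bar), with another test, filter or scaling (grey circles) and with 1 library left out (orange triangles). Ptgs2 ranges from 0.50 to 0.94 and Ptgfr from -1.81 to -1.27, and neither reaches 0.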

How the data were processed

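Per the submitters' processing notes, TopHat2 2.0.13, HTSeq 0.7.2 and the mm9 build were used; annotation and strand setting are not given in the sources used here. Trizol RNA went into TruSeq libraries, per the labels' protocols. The authors deposited raw counts per gene symbol, 1 table per library, with 24015 symbols and 5 summary lines. The summary lines (57.3% to 61.3% of records) name no gene and were left out. From these counts, edgeR 4.0.16 (R 4.3.3) fitted quasi-likelihood models over all genes, with TMM scaling, group as the only term and filterByExpr (minimum count 10, minimum total 15), and p-values were adjusted by Benjamini-Hochberg over 12128 tested genes. CPM used TMM-scaled library sizes, and the SE is the log2 fold change divided by the square root of F. Replicates differed by more than sampling noise (chi-square per gene of 11.5 between IFN-beta and 32.3 between untreated libraries). With 2 libraries against 2, an exact permutation test cannot go below p = 0.333 and was not used.

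Members, lists and tests were chosen with earlier results of these data known. Named were all members and, of each other list, genes called at a mean of 1 CPM or more or, with none called, the 2 with the smallest p, the leading gene of each marker list and the 3 genes nearest to the member with the largest change. Alternatives used DESeq2 1.42.0, limma 3.58.1 (voom), 3 scalings, 2 filters, a replicate block and leaving out each library. The fit was first tested on simulated data with known changes, placed only in genes with high counts. The simulated spread was fixed in advance and not taken from these replicates. That run therefore says nothing about calls of genes with low counts, such as Ptgfr. Promoters were matched by symbol to RefSeq windows (GRCm38.p6), and no coordinates of the count annotation were used. Intervals and floors cover counting error only. 1 further result is not reported here.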

Additional observations from a re-analysis of the deposited data

How the results depend on the processing

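Across the 12 alternatives Ptgs2 stayed higher and Ptgfr lower, with calls in 8 and 7 of them. Slco2a1 was called in 12, Zfp36 in 11, Ptgfrn in 10 and Ptgir in 8. All are refits of the same 4 libraries, so these counts show dependence on the processing and add no evidence. In the edgeR fit as reported, the calls of Ptgs2 and Ptgfr lay just under the adjusted p threshold of 0.05. Total library size scaling moved the median of all genes from -0.02 to -0.16, gave 349 lower genes in place of 60 and left 0 members called higher, with Ptgs2 at 0.59. Upper quartile scaling gave 128 lower genes and also 0 members called higher, as did the filter at 1 CPM (0). Without a count filter 863 genes were higher (574 with it) and 381 lower, and 8 pathway genes were higher and 2 lower. DESeq2 gave 103 lower genes and 0 members called lower, and limma-voom 0 members called lower. Leaving out each library in turn gave 470 to 1885 higher and 24 to 1727 lower genes, 0 to 3 members called higher and 0 to 1 lower, and 1 to 12 pathway genes higher and 0 to 5 lower. The upper ends came without untreated replicate 2, and with 1 library in a group its spread is taken from the other group. Akr1c18 turned to -0.054 with total library size. The cause of these shifts was not tested. The replicate block gave 151 lower genes, and 1 member higher and 1 lower; same-numbered libraries deviated with a correlation of -0.03, so the numbers are not taken as a pairing. The counts of Ptgfr, Ptger1 and Ptger2 limit what can be seen in them.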
